A study of Mus musculus with 2 samples.

Results

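Cells in mitosis use a limited set of proteins to build the spindle, attach chromosomes to it, hold back anaphase until every chromosome is attached, and divide. The 42 mitotic genes described here are a listed set, matched by symbol to both gene tables, in which 43346 Ensembl genes have an entry. All 42 were found, and no measured value was used in the match. They lie on 15 chromosomes, with 8 of them on chromosome 2.

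The spindle is an array of microtubules that pulls sister chromatids apart, and the kinetochore is the protein assembly on each centromere that microtubules grip. A kinetochore without a microtubule activates the spindle checkpoint, which inhibits the anaphase-promoting complex (APC/C), a ubiquitin ligase. Once active, this ligase marks securin and mitotic cyclins for destruction and anaphase begins. Many of these genes are transcribed mainly in late S, G2 and M phase, and in the fetal gut the epithelium, the mesenchyme and the forming muscle layers all hold dividing cells.

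Total RNA was sequenced from intestine of healthy embryos of strain B6NCrl at embryonic day 15.5 (E15.5), in 1 group of 2 libraries labelled as biological replicates. Replicate 1 was made from 78 pooled embryos of both sexes and replicate 2 from another pool, of 62, likewise of both sexes. No treatment or mutation is labelled and no other tissue or age was analysed here. There is therefore no contrast between groups, and errors give the spread of the pools only. Estimated counts sum to 34406900 in replicate 1 and 40669800 in replicate 2. Levels are in TPM (transcripts in every 1000000), a unit per length that lets genes be set side by side, and paired values give replicate 1 before replicate 2.

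Markers of gut tissue were high in both libraries. Fabp1, a fatty acid carrier of enterocytes, stood at 2213 and 1919 TPM, and Acta2, an actin of smooth muscle, at 1251 and 1296 TPM. Of 14 genes of meiotic germ cells, 3 reached 1 TPM in both libraries, and the highest, the meiotic cohesin subunit Rec8, stood at 8.87 and 6.50 TPM. The libraries are of whole tissue, so fewer dividing cells and less RNA per dividing cell cannot be told apart.

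All 42 genes were detected, that is, at 1 TPM or more in both libraries, and all 42 reached 10 TPM in both. Over all genes listed, 14986 (34.6%) were detected. The median of the mitotic genes was 58.3 ± 2.73 TPM (SD, n = 2), beside 17.8 TPM for the 13474 detected protein-coding genes and 15.5 TPM for all detected genes. Together the mitotic genes held 0.321% of all TPM in replicate 1 and 0.344% in replicate 2. The least counted member had 831 and 1030 estimated counts and the most counted 7584 and 8762.

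Levels spanned 33.9-fold between Ube2c at the top and Espl1 at the bottom. In both libraries 9 genes exceeded 100 TPM, and 4 genes (Kif4, Cenpe, Kif18a and Espl1) stayed below 20 TPM. For comparison, 1635 of the 14986 detected genes reached 100 TPM in both libraries. Among the 13474 detected protein-coding genes, 1548 did so. The 3 highest genes, Ube2c, Birc5 and Cdc20, made up 24.6% of the TPM of the set. With the genes in order of mean level, 27 of the 41 neighbouring pairs had ranges that overlapped between the libraries and 14 did not. Ube2c, Birc5, Cdc20 and Cenpa each stood clear of the gene after them. From Bub3 through Smc2, Smc4, Aurkb and Spc25 to Cdca8 each range overlapped the next, so the order of neighbours there was not resolved. Some genes further apart in that stretch had ranges that did not overlap, such as Bub3 and Smc4, or Smc2 and Aurkb.

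**Figure D1:**
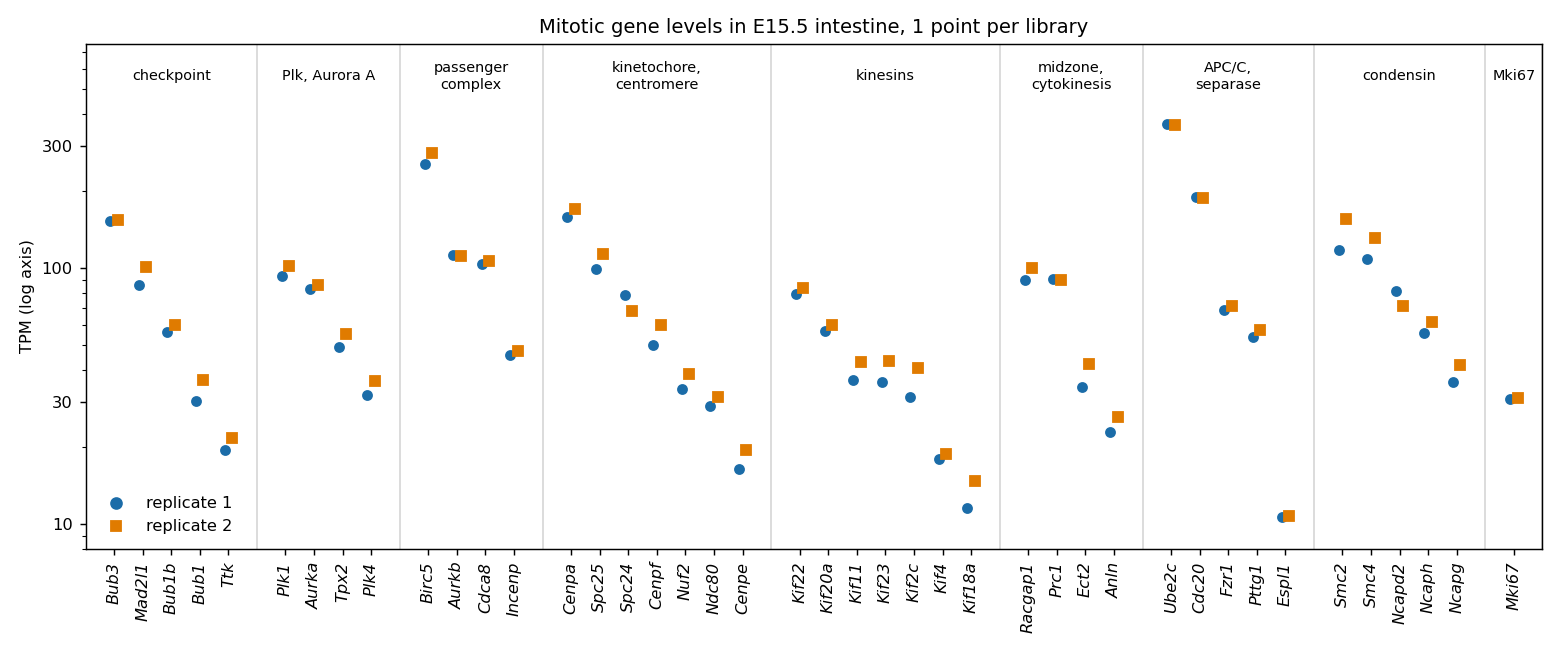
TPM on a log axis (vertical) of each of the 42 mitotic genes (horizontal), grouped by role and ordered by mean level within a role; circles are replicate 1 and squares replicate 2. Ube2c is at the top with 364 and 361 TPM and Espl1 at the bottom with 10.7 TPM in both libraries, a span of 33.9-fold.

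Promoter sequence is shown for the 3 highest and the 2 lowest members that have an entry in the RefSeq table (build GRCm38.p6), because cell-cycle genes often carry a CCAAT box, which the factor NF-Y binds, and a cell-cycle homology region (CHR), which the DREAM and MuvB complexes bind. Each line holds the 250 bases before the RefSeq start, read 5′ to 3′ on the gene's strand, and capitals mark a CCAAT box (CCAAT, or ATTGG for the other strand) or a CHR-type match, which is TTTGAA, its reverse complement TTCAAA, or the palindromic word TTCGAA. For several of these genes GENCODE places the start some bases away. The lines are Ube2c (chr2:164769679-164769928, plus strand), Birc5 (chr11:117848987-117849236, plus), Cdc20 (chr4:118437344-118437593, minus), Kif18a (chr2:109280488-109280737, plus) and Espl1 (chr15:102296043-102296292, plus).
Ube2c: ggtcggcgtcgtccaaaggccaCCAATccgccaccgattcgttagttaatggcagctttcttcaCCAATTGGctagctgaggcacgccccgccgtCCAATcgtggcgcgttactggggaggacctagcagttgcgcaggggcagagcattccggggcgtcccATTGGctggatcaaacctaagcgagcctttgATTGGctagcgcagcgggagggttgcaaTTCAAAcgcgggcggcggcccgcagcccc
Birc5: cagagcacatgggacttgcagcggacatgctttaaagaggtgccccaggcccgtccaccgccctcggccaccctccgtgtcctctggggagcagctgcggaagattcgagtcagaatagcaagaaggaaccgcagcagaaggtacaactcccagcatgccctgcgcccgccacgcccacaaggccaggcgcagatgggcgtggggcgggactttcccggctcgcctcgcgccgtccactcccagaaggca
Cdc20: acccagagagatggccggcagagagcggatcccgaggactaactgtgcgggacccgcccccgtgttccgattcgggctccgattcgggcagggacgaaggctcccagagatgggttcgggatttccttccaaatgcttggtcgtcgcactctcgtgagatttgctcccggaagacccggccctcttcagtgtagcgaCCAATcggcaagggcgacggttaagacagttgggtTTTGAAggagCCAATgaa
Kif18a: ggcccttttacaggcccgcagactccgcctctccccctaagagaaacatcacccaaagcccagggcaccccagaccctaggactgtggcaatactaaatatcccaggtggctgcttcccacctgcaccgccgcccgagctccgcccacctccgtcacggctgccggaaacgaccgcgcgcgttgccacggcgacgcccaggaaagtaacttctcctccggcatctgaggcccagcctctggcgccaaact
Espl1: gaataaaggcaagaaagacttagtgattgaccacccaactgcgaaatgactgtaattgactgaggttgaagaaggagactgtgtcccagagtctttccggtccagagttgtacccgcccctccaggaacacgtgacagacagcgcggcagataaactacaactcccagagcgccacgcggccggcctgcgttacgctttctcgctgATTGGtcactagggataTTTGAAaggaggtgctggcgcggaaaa

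Ube2c, the highest of the 42, held 6 CCAAT matches, 2 of which overlap on opposite strands, and 1 CHR match 29 bases before the start. Cdc20 held 2 CCAAT matches, 53 and 8 bases before the start, with a CHR match between them at 18 bases. Espl1, the lowest, held a CCAAT match at 44 bases and a CHR match at 27 bases. Birc5, the second in level, and Kif18a, the second lowest, held neither. High and low members therefore both included promoters with and without these letters.

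Among all members, 36 had a promoter entry, while Tpx2, Spc24, Smc4, Aurkb, Incenp and Kif20a had none. Only the first entry of each gene was used. The Kif2c window (chr4:117178773-117179022, minus strand) lies inside that gene. The 5′ end of Kif2c, also that of its leading transcript Kif2c-201, is at 117182639. Kif2c is counted below with a CHR-type match and no CCAAT match. The windows of Kif4 (chrX:100625815-100626064, plus) and Pttg1 (chr11:43425982-43426231, minus) also lie inside their genes. The 5′ ends of these genes and of their leading transcripts are at 100625737 and 43426251. Kif4 is counted with 2 CCAAT matches and no CHR-type match, and Pttg1 with neither. The Cdca8 window lies inside its gene too, but before the start of its leading transcript Cdca8-202. A CCAAT match on either strand lay in 26 of the 36 (72.2%), beside 34.5% of all 27025 promoters of that length and 36.4% of the 10539 promoters of detected protein-coding genes. The share in a list of DNA replication genes was close to it, at 66.7% of 33. A CHR-type match lay in 13 members (36.1%), beside 17.4% of all promoters, 12.2% of those of detected protein-coding genes and 21.2% of the replication list. Both kinds lay in 12 members (33.3%), beside 6.21%, 4.87% and 18.2% in the same sets. In 15 members (41.7%) there were 2 or more CCAAT matches, against 10.5% of all promoters, 13.6% of those of detected protein-coding genes and 33.3% of the replication list. These are letter matches, not measured binding sites.

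The checkpoint genes spanned 7.47-fold. Bub3, which carries its partners Bub1 and BubR1 to kinetochores, was the highest at 153 and 155 TPM. Mad2l1 (Mad2), which captures Cdc20, followed at 86.0 and 100.9 TPM. Bub1b, which encodes BubR1, had 56.4 and 59.9 TPM, and the kinase Bub1 had 30.3 and 36.4 TPM. Ttk (Mps1), the kinase that starts checkpoint signalling, was the lowest of the role at 19.5 and 21.7 TPM. Bub3 thus exceeded Bub1 by 5.05-fold in replicate 1 and 4.25-fold in replicate 2.

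Plk1, a kinase of mitotic entry, centrosome maturation and cytokinesis, stood at 93.4 and 102 TPM. Aurka (Aurora A), a kinase of centrosomes and spindle poles, was at 82.7 and 86.3 TPM, and its activator Tpx2 at 49.1 and 55.2 TPM. Plk4, the kinase that starts centriole duplication, was lower at 32.04 and 36.08 TPM, so the ratio of Plk1 to Plk4 was 2.91 and 2.83. Paralogs of these kinases differed in level. Plk2 had 55.6 and 57.5 TPM, Plk3 had 3.07 and 3.03 TPM, and Plk5 had 0.26 and 0.53 TPM. Aurkc, the Aurora kinase known from germ cells, was listed at 0 in both libraries.

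The chromosomal passenger complex corrects faulty attachments and later acts in cytokinesis. Its kinase Aurkb (Aurora B) stood at 112 and 111 TPM, and Cdca8 (borealin), which helps it reach the centromere, at 104 and 107 TPM. Birc5 (survivin) was far higher, at 255 and 281 TPM, and the scaffold Incenp was far lower, at 45.9 and 47.6 TPM. The ratio of Birc5 to Incenp was 5.56 in replicate 1 and 5.91 in replicate 2. The ranges of Birc5, Aurkb and Incenp did not overlap. Birc6, a large ubiquitin ligase with the same kind of repeat as Birc5, had 57.7 and 70.45 TPM, a level that was 14.7 TPM on average at a fixed coding length.

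At the centromere, the histone H3 variant Cenpa, which marks where a kinetochore forms, had 158 and 170.4 TPM. The 4 subunits of the Ndc80 complex, which binds microtubules directly, formed a higher and a lower pair. Spc25 had 99.5 and 113 TPM and Spc24, its partner at the kinetochore end, 78.4 and 68.0 TPM. Nuf2 had 33.6 and 38.5 TPM and Ndc80, its partner at the microtubule end, 28.9 and 31.3 TPM. Both Spc genes were above Nuf2 and Ndc80 in both libraries. Spc25 exceeded Ndc80 by 3.45-fold in replicate 1 and 3.62-fold in replicate 2. The kinesin Cenpe, which carries chromosomes toward the spindle equator, was low at 16.4 and 19.5 TPM. Cenpf, a large protein of the outer kinetochore, was listed at 49.9 and 59.7 TPM, a value that depends on short transcripts as described with the transcript classes.

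The 7 kinesins of the set, motors that move along or dismantle microtubules, spanned 6.21-fold, and none reached 100 TPM. Kif22 (Kid), which pushes chromosome arms away from the poles, led with 79.4 and 83.3 TPM. Kif20a (Mklp2), which brings the passenger complex to the midzone, followed with 57.0 and 59.9 TPM. Kif11 (Eg5), which separates the spindle poles, had 36.5 and 43.0 TPM. Kif23 (Mklp1), a subunit of centralspindlin, had 36.0 and 43.2 TPM, and Kif2c (MCAK), a microtubule depolymerase, 31.3 and 40.8 TPM. The chromokinesin Kif4 had 17.9 and 18.8 TPM. Kif18a, which damps chromosome oscillations at the metaphase plate, was the lowest kinesin at 11.5 and 14.7 TPM. The paralog Kif2b was listed at 0 in both libraries.

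In the midzone and the cleavage furrow, Racgap1, which forms centralspindlin with Kif23, had 89.5 and 100.4 TPM. It exceeded Kif23 by 2.49-fold in replicate 1 and 2.32-fold in replicate 2. Prc1, which bundles antiparallel microtubules, had 90.3 and 89.6 TPM. Ect2, the exchange factor that activates RhoA at the equator, was lower at 34.39 and 42.02 TPM, and the scaffold Anln (anillin) at 22.9 and 26.1 TPM. The bundling protein and the centralspindlin GTPase activator were thus above the furrow genes in both libraries.

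The genes of the exit from mitosis held both ends of the order. Ube2c, the ubiquitin-conjugating enzyme of the APC/C, had 364 and 361 TPM. The activator Cdc20, used before anaphase, had 189 and 188 TPM, and the activator Fzr1 (Cdh1), used from late mitosis into G1, 68.4 and 71.2 TPM. The ratio of Cdc20 to Fzr1 was 2.77 and 2.64. Pttg1 (securin), the inhibitor of separase, had 53.6 and 57.4 TPM. Espl1 (separase), the protease that cuts cohesin, had 10.7 TPM in both libraries, so the inhibitor exceeded its protease by 5.01-fold and 5.35-fold. The paralog Cdc20b was listed at 0.

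The condensin I subunits compact chromosomes. In the gene table Smc2 had 118 and 155 TPM and Smc4 had 108 and 131 TPM, the ATPase pair that condensin I shares with condensin II. Ncapd2 had 81.2 and 71.0 TPM, Ncaph, which closes the ring, 55.7 and 61.7 TPM, and Ncapg 35.9 and 41.8 TPM. The highest and lowest subunit differed by 3.51-fold. Mki67, a protein of the chromosome surface used as a stain for cycling cells, had 30.74 and 31.04 TPM, below the median of the set in both libraries.

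Transcript tables showed how much of each gene fell on which annotated transcript. A single transcript was listed for 12 genes, and in 22 genes the leading transcript held at least 90% of the gene's TPM. In 40 of 42 genes the leading transcript was protein-coding, and in 38 it was a complete coding model. The exceptions were Smc2, Cenpa, Smc4 and Cenpf. Biotypes came from GENCODE M21, and the class of some Plk4 transcripts that M21 lacks was not assigned.

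**Figure D2:**
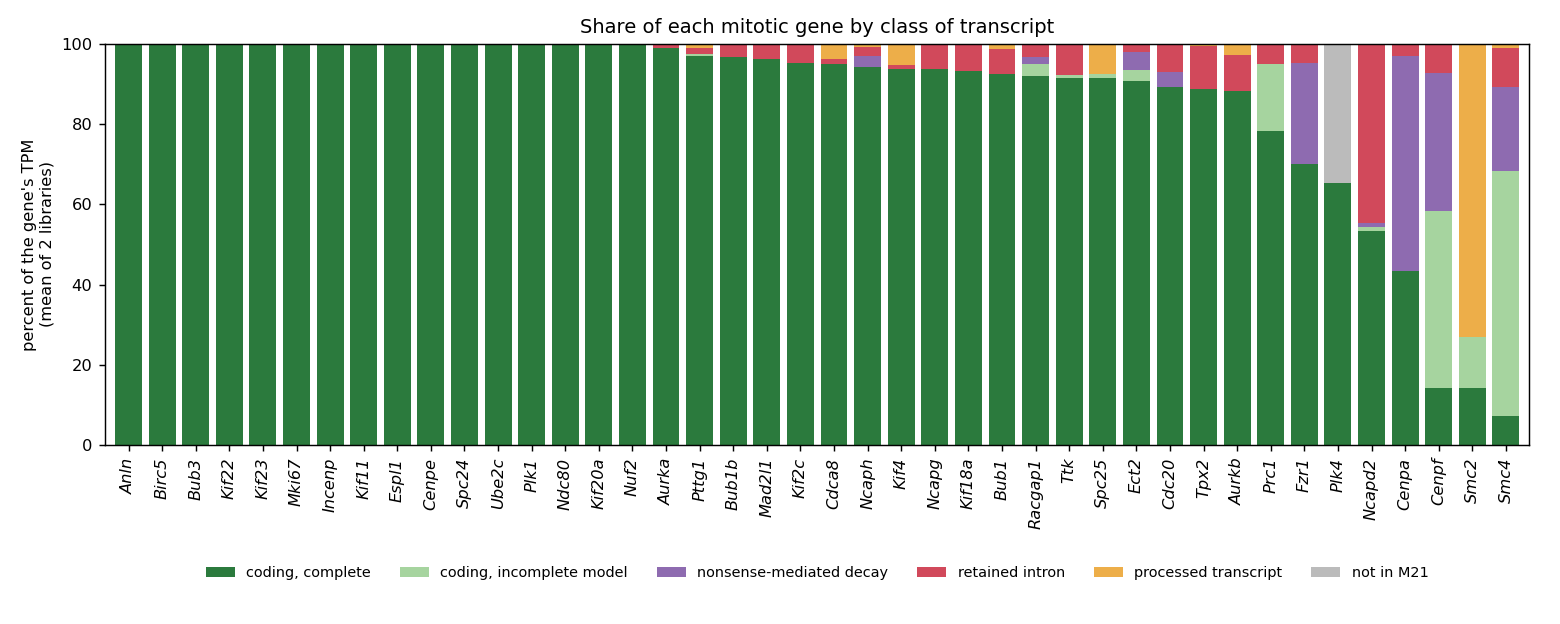
Percent of the TPM of each mitotic gene (vertical, mean of both libraries) on transcripts of each annotated class, 1 stacked bar per gene (horizontal), ordered by the share on complete coding transcripts. Most bars are nearly all complete coding transcript; Smc2 has 73.2% outside coding classes, Cenpa 56.6%, Ncapd2 45.7% and Cenpf 41.6%, and Smc4 61.3% on an incomplete coding model.

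Smc2 (ENSMUSG00000028312.15, chr4:52439243-52488260, plus strand) was led by Smc2-203, a processed transcript of 643 nucleotides that held 58.3 ± 3.79% of the gene's TPM (SD, n = 2). It begins 9 bases after the gene's 5′ end and stops 40484 bases before its 3′ end. The full-length coding transcript Smc2-201, of 5404 nucleotides, had 18.1 and 19.4 TPM. Because it is long, Smc2-201 nevertheless took 55.1% of the gene's estimated counts, against 23.7% on Smc2-203. The gene-level 118 and 155 TPM are thus mostly a short transcript near the 5′ end. How the short models were assigned reads that the long one also holds was not tested.

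Smc4 (ENSMUSG00000034349.10, chr3:69004738-69034623, plus strand) showed the same layout. Smc4-206, an incomplete coding model of 1163 nucleotides that stops 16515 bases before the gene's 3′ end, held 61.3 ± 0.80% of TPM. The complete Smc4-201 had 6.86 and 6.27 TPM, and Smc4-207, a full-length model classed for nonsense-mediated decay, 22.6 and 26.9 TPM. In Cenpf (ENSMUSG00000026605.10, chr1:189640606-189688086, minus strand) the incomplete Cenpf-203 of 3001 nucleotides held 44.1 ± 1.52% and the 609-nucleotide decay model Cenpf-201 held 34.2 ± 2.32%. The complete Cenpf-204 of 11130 nucleotides had 7.81 and 7.75 TPM. All 4 of these short Smc2, Smc4 and Cenpf models start within 232 bases of the 5′ end of their genes.

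Cenpa (ENSMUSG00000029177.5, chr5:30666777-30674830, plus strand) was divided almost evenly. The decay-class Cenpa-202 held 43.1 ± 0.64% and the coding Cenpa-205 held 42.8 ± 1.06%, ranges that overlap, so which of them leads is not resolved. In Ncapd2 the complete coding Ncapd2-201 led with 46.85% and 59.99%, and retained-intron models made up most of the rest. The retained-intron Ncapd2-208, of 480 nucleotides, held 18.6% in replicate 1 and 3.60% in replicate 2, on 138 and 27.2 estimated counts. In Fzr1 the coding Fzr1-205 held 67.2% and 46.4%, and the decay-class Fzr1-201 held 15.6% and 34.6%. Of the genes whose transcripts are described here, Ncapd2 and Fzr1 had the widest differences in transcript share between the libraries, while the Fzr1 total stayed at 68.4 and 71.2 TPM.

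Other genes were split between coding transcripts. The leading Prc1-206 held 38.0 ± 1.70% of Prc1, with Prc1-202 at 22.8 ± 3.83%. Tpx2-202 held 45.1 ± 6.77% of Tpx2, Pttg1-202 held 52.1 ± 1.39% of Pttg1, and Kif20a-202 held 53.2 ± 0.68% of Kif20a against 46.8 ± 0.68% on Kif20a-201. The Kif20a models differ in length by few bases, at 3565 and 3567 nucleotides.

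To set gene levels on 1 footing, each gene's estimated counts were also divided by the length of its most used complete coding transcript and scaled to the same total as TPM, here called fixed-length TPM. On this scale 38 of the 42 genes moved by at most 5 ranks. In 4 genes the deposited TPM was more than 1.5 times the fixed-length level. Smc2 had a fixed-length TPM of 32.9 and 39.3, and its deposited TPM was 3.78 times this on average; its rank was 31 in place of 6. Cenpf had a fixed-length TPM of 15.4 and 17.1, with rank 40 in place of 24. Smc4 was at 48.8 and 59.8, with rank 21 in place of 7, and Ncapd2 at 45.8 and 49.0, with rank 24 in place of 17.

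Condensin I changed most. Its highest and lowest subunits differed by 3.51-fold in TPM, by 2.25-fold over coding transcripts only and by 1.67-fold at a fixed coding length. The order changed both over coding transcripts and at a fixed length. Over coding transcripts Smc4 was the highest at 73.9 and 89.6 TPM, of which the incomplete Smc4-206 held 67.0 and 79.3 TPM. Smc2 was then at the bottom with 33.1 and 39.6 TPM, beside Ncapg at 33.3 and 39.6 TPM. At a fixed length Ncaph had the highest mean, with a fixed-length TPM of 57.0 and 63.4, a range that overlapped that of Smc4. The Ndc80 complex kept its division, with Spc25 3.61 times Ndc80 at a fixed length. In the passenger complex Birc5 stayed the highest and Incenp the lowest, 6.01 times apart, while the close pair Aurkb and Cdca8 changed places, with mean fixed-length TPM of 108 and 109. Smc2, the highest condensin gene in the deposited TPM, had the lowest mean of the 5 at a fixed length.

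**Figure D3:**
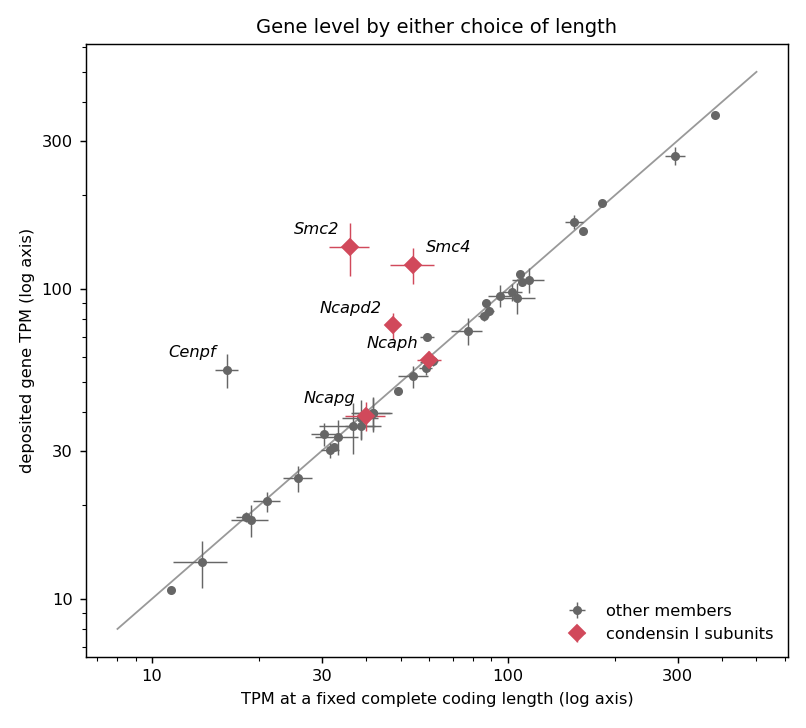
Deposited gene TPM (vertical, log axis) against the level at a fixed complete coding length (horizontal, log axis) for the 42 mitotic genes; points are means and bars SD of the 2 libraries, diamonds are condensin I subunits and the line marks equality. Most genes lie on the line, while Smc2, Smc4, Ncapd2 and Cenpf lie more than 1.5 times above it.

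Genes of the set with longer coding transcripts had lower levels. Across the 42 genes Spearman's rho between TPM and the length of that coding transcript was -0.57. With the fixed-length level, in which that length itself is the divisor, rho was -0.75. TPM is also divided by a length, that of the transcripts used, so neither value is free of it. Across the 13430 detected protein-coding genes with a length, rho was -0.31 for TPM. The transcripts ran from 741 nucleotides (Pttg1) to 11130 nucleotides (Cenpf). These are descriptions across genes that share both libraries, and genes are not independent replicates.

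Between the libraries, 36 of the 42 genes were lower in replicate 1 than in replicate 2, a direction seen in 55.2% of all detected genes. The median of log2((TPM of replicate 1 + 1)/(TPM of replicate 2 + 1)) was -0.13 over the mitotic genes and -0.02 over all detected genes. This scale slightly understates the change of low genes. The differences were small. None of the 42 was past 1.5-fold, where 2.23% of detected genes were, and 3 (Smc2, Kif2c and Kif18a) were past 25% (the higher over the lower library), where 8.87% of detected genes were. Ratios ran from -0.39 in Smc2 to 0.20 in Spc24.

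The deposited credibility intervals, whose level is not stated, cover uncertainty within a library and not the spread of pools. That uncertainty is not of read assignment alone. Espl1, with a single listed transcript, had bounds of 9.95 and 10.94 TPM in replicate 1. The intervals lay apart with replicate 1 higher in 1 gene, Spc24, against 7.27% of detected genes. With replicate 2 higher they lay apart in 20 genes, against 14.0% of detected genes. For the other 21 the intervals overlapped. Neither these shares of detected genes nor those past a fold were matched for level. All members reached 10 TPM in both libraries, as did 8953 of the 14986 detected genes. Under edgeR TMM and under DESeq2 size factors 8 genes were higher in replicate 1 and 34 in replicate 2, and at a fixed coding length 3 and 39. The direction of the median was the same in each.

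**Figure D4:**
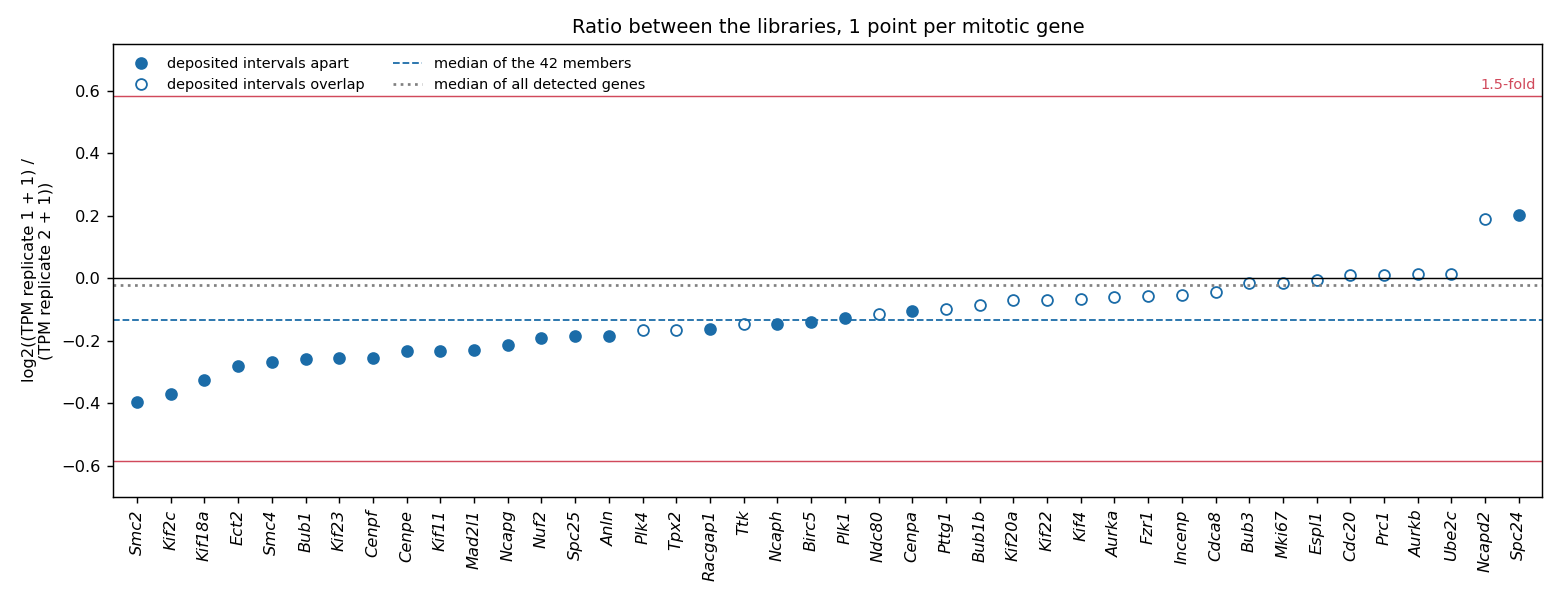
Log2 ratio of replicate 1 to replicate 2 with a pseudocount of 1 TPM (vertical) for each mitotic gene (horizontal, ordered by ratio); filled points have deposited intervals that lie apart, open points have intervals that overlap. The dashed line is the median of the 42 genes at -0.13, the dotted line the median of all detected genes at -0.02, and all points lie within the 1.5-fold lines.

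By role, all 7 kinesins, all 5 checkpoint genes and all 4 genes of the Plk and Aurora A group were lower in replicate 1, while the 6 genes that were higher there were Spc24, Ncapd2, Ube2c, Aurkb, Prc1 and Cdc20. At a fixed coding length Ncapd2, Aurkb, Prc1 and Cdc20 were lower in replicate 1, Spc24 and Ube2c remained higher there, and Fzr1 became higher. The ratio and the coding length had a rho of -0.33 across the 42 genes and -0.11 across detected protein-coding genes. Other lists differed between the libraries as well. The DNA replication genes had a median ratio of -0.10, with 35 of 41 lower in replicate 1, and 7 of 7 mesenchyme markers were lower there with a median of -0.17. Gut epithelium markers had a median of 0.10, with 9 of 10 higher in replicate 1. Medians of the other marker lists were -0.17 for enteric neurons and glia, -0.06 for endothelium, -0.02 for smooth muscle and 0.09 for red cell precursors, and macrophage markers were higher in replicate 1 in 3 of 6 cases. All 10 exocrine pancreas markers were higher in replicate 1, where they held 0.488% of TPM against 0.183% in replicate 2. With the pancreas markers left out of the total, the median of the mitotic genes was -0.13. That step only rescales each library by this small share of TPM, so it could change the median little and does not bear on composition. The part of tissue composition in the small difference was not tested.

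Other genes of mitosis, in 9 lists, were detected in 119 of 119 cases, with a median of 29.1 TPM. The mitotic cyclins and Cdk1 with their regulators had a median of 72.7 TPM, led by Cdk1, the kinase that drives mitotic entry, at 366 and 344 TPM. The Cdk1-binding proteins Cks1b and Cks2 and the PP2A inhibitor Arpp19 followed in TPM. At a fixed coding length Arpp19 led with a mean of 846 TPM, against 241 deposited, and Cdk1, at 257, was below Cks1b at 337 and Cks2 at 279.8. Ccnb1 (cyclin B1) had 169.7 and 182 TPM. The kinase Mastl, which acts upstream of Arpp19, was the lowest there at 5.83 and 7.67 TPM.

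The APC/C subunits and associated proteins had a median of 75.2 TPM, led by Anapc5 at 241 and 251 TPM. Ube2s, which extends the chains that Ube2c starts, had 237 and 232 TPM. The APC/C is thus accompanied by 2 conjugating enzymes, both higher than either activator, with Ube2c the higher of them. The list of CENP-A loading factors had a median of 41.3 TPM, led by the chaperone Hjurp at 133 and 132 TPM, beside Cenpa itself at 158 and 170.4 TPM.

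Away from the Ndc80 complex the kinetochore genes were lower. Other outer kinetochore and checkpoint genes had a median of 25.1 TPM, with Zwint at 169 and 181 TPM and the Mis12 complex subunit Pmf1 at 105 TPM in both libraries far above Knl1 at 34.4 and 44.4 TPM, whose mean at a fixed coding length was 18.2 TPM. The constitutive centromere network had a median of 20.8 TPM, with Cenpx at 141 and 136 TPM. Other spindle assembly genes had a median of 29.2 TPM. Among them Stmn1, which destabilises microtubules and is also abundant in neurons, stood at 1032 and 1186 TPM, and Tacc3, a partner of Aurora A at spindle microtubules, at 123 and 143 TPM.

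Cohesin genes, which hold sister chromatids together until separase acts, had a median of 26.7 TPM, led by Smc1a at 73.7 and 76.8 TPM. Of the subunits particular to condensin II, Ncaph2 stood at 113 and 108 TPM, far above Ncapd3 at 14.0 and 16.2 TPM and Ncapg2 at 12.4 and 13.1 TPM. Ncaph2 exceeded its condensin I counterpart Ncaph by 2.04-fold in replicate 1 and 1.74-fold in replicate 2, and by 1.46-fold at a fixed coding length. Factors of G2/M transcription, among them subunits of NF-Y and MuvB, had a median of 19.6 TPM, led by the MuvB subunit Rbbp4, which other chromatin complexes share, at 257 and 322 TPM (mean 140.2 TPM at a fixed coding length). Foxm1 had 21.9 TPM in both libraries and Mybl2 (B-Myb) 20.96 and 22.04 TPM.

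The median of the mitotic genes, 58.3 ± 2.73 TPM, was below that of the DNA replication genes, 72.8 ± 1.85 TPM (SD, n = 2). The gap exceeded either spread between the pools, which is not a spread across genes. Levels within the lists overlapped, from 10.7 to 363 TPM in the mitotic genes and from 9.55 to 211 TPM in the replication genes. The replication list was led by the sliding clamp Pcna at 205 and 217 TPM and the helicase subunit Mcm6 at 202 and 215 TPM. The list of G1 cyclins, kinases and inhibitors had a median of 37.9 ± 4.56 TPM, with Cdk4 at 1329.7 and 1304 TPM, the highest of the list also at a fixed coding length, where its mean was 575 TPM. The inhibitor Cdkn1c was next in mean TPM, at 390 and 402 TPM. At the low end of that list Cdkn2a, an inhibitor known from senescent cells, was at 0.05 and 0 TPM.

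**Figure D5:**
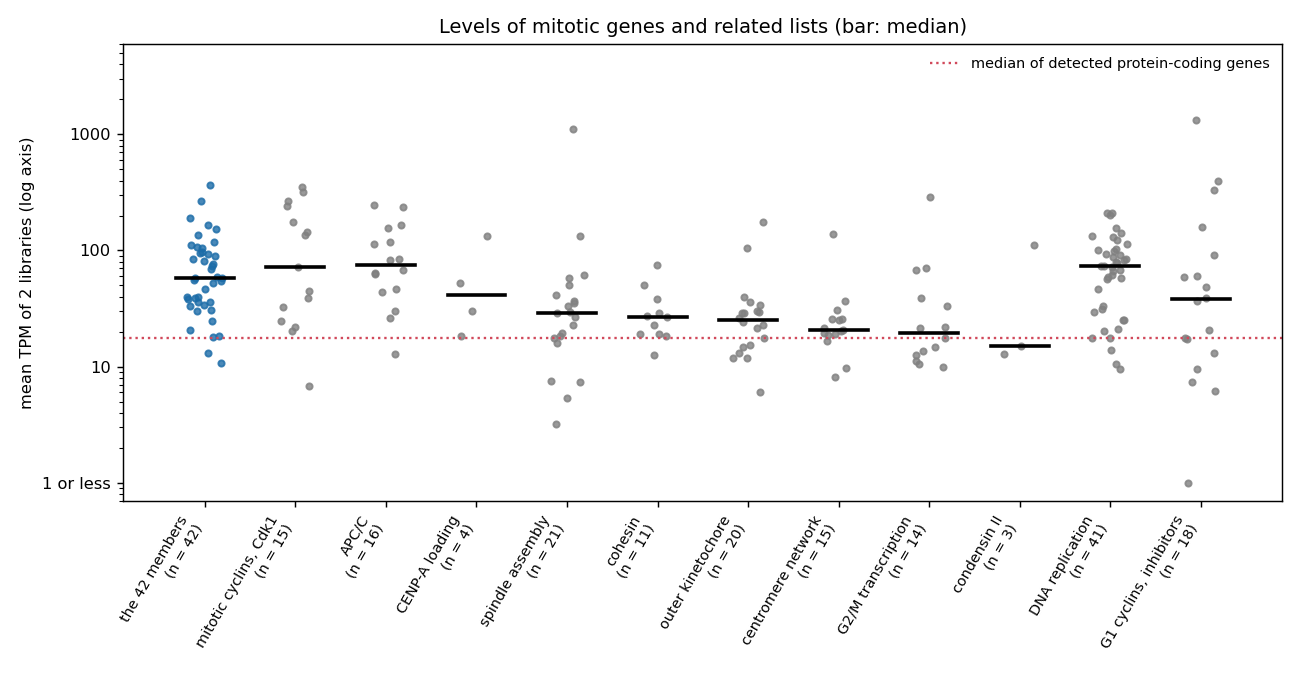
Mean TPM of both libraries (vertical, log axis, values of 1 or less drawn at 1) for the 42 mitotic genes and for related lists (horizontal, 1 point per gene, n beside each name); bars are medians and the dotted line is the median of detected protein-coding genes at 17.8 TPM. The mitotic genes have a median of 58.3 TPM, the DNA replication genes 72.8 TPM and condensin II 15.1 TPM.

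Reads shared with other genes limit some values. Estimated counts, deposited with 2 decimals, were within 0.005 of a whole number in both libraries for 34 genes and not for 8 (Cdc20, Kif20a, Kif4, Ncapd2, Ncapg, Plk1, Plk4 and Ube2c), whose reads were split with other entries. Cdc20 shared 25.5% of its 31-base words with other genes on the same strand, chiefly the pseudogene Gm7856, and Plk1 shared 14.8%, chiefly with Plk-ps1. Words shared with any genes on the opposite strand exceeded 10% in Kif20a (26.7%), Ube2c (21.1%), Kif4 (15.0%), Ncapg (12.5%) and Prc1 (10.8%). The single gene with most of these was Cdc23 for Kif20a (26.7%), Tnnc2 for Ube2c (17.6%), Pdzd11 for Kif4 (13.1%), Lcorl for Ncapg (12.4%) and Rccd1 for Prc1 (7.56%). The sources used here do not say whether counting used strand, so reads of these pairs may not be told apart. The word shares run over all M21 transcripts of a gene, used or not, and are not shares of its reads. How far the levels of these genes are uncertain for this reason was therefore not measured.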

How the data were processed

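The 42 genes, the other gene lists and the comparisons were chosen with earlier results of these data known. The labels' protocols name mirVana extraction, RNA above 200 nucleotides, 10 ng of input, ERCC spike-ins and a SMARTer ultra-low-input manual. The deposited readme names assembly mm10 with GENCODE M4. The sources used here give no aligner, quantifier, strand setting or read length. The authors deposited a gene and a transcript table per library. Per the file headers these hold expected counts (estimated counts that need not be whole), TPM and FPKM, maximum-likelihood and posterior mean versions, and the percent of a gene on each transcript. The deposited bounds of the TPM credibility interval were treated as a score with no stated level. TPM is scaled over all entries, of which those that are not Ensembl genes held 2.16% and 1.76% of counts.

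Symbols and transcript classes came from GENCODE M21 on the same assembly, and all 308 symbols of the lists were matched. A gene was called detected at 1 TPM in both libraries, and ratios used a pseudocount of 1 TPM. With 1 group, no test was run. Counts rounded to whole numbers gave edgeR 4.0.16 TMM and DESeq2 1.42.0 scaling only, over 19732 genes with at least 10 counts (R 4.3.3). Near-identical copies were sought as 31-base words in M21 transcripts. The ratio step was checked on simulated data. Promoter sequence and motifs came from the RefSeq table of GRCm38.p6.

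The text names all 42 genes. Of each other list it draws on the 4 highest members and up to 4 below 1 TPM, and of each marker list on the 2 highest. Isoforms are given for the 6 genes with the highest percent on transcripts that do not code and the 6 with the lowest leading percent. A few further genes were chosen after their values were seen (Plk3, Ccnb1, Mastl, Foxm1 and Mybl2). Alternatives covered the detection limit, unit, pseudocount, scaling, the length used, coding transcripts only and each library left out in turn. The fixed coding length, the removal of pancreas markers and the restriction to complete coding transcripts were added after the data were seen.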

Additional observations from a re-analysis of the deposited data

How the results depend on the processing

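No paired analysis was possible because there is 1 group. Rescaling TPM over protein-coding genes outside the mitochondrial genome gave a median of 71.6 TPM for the mitotic genes, a share of 0.408% of TPM, and a median of 89.4 TPM for the DNA replication genes. At a fixed coding length these medians were 54.3 and 66.0 TPM, and Birc5 was 6.01 times Incenp. A limit of 25% in place of 1.5-fold counted 3 genes in place of 0. Over coding transcripts only, the highest and lowest subunit differed by 3.27-fold in the Ndc80 complex and by 2.25-fold in condensin I, which was 1.67-fold at a fixed coding length. The 1.67-fold value is Ncaph over Smc2. Smc2, above Ncapg in the deposited TPM, had a mean of 36.1 against 40.1 for Ncapg at a fixed length. The other 47 alternative values moved by less than the spread between the libraries or, for counts, by less than 1.5 times. Every value with 1 library left out is among them. However, a mean of 2 libraries cannot move past their SD when 1 is left out. The leave-out levels and folds therefore say little about stability. Medians of the ratio between libraries kept their sign. With 2 libraries and no second group, the spread is imprecise, and transcript shares rest on the authors' assignment of reads shared between models, whose method the sources used here do not give.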
